A study of Homo sapiens with 12 samples.

Results

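The subject is the response to SOX9-AS1 knockdown that differs between 2 breast cancer cell lines, MDA-MB-468 and HCC1187. All 12 RNA-seq libraries of the study entered, of 12 in all. MDA-MB-468 and HCC1187 are established lines of triple-negative breast cancer, which lacks oestrogen receptor, progesterone receptor and HER2 amplification, and the labels call both basal-like. Each line was transfected for 48 h with an shRNA against SOX9-AS1 (knockdown) or with an shRNA against LacZ (control), with 3 libraries in each of the 4 groups. The libraries are named S1 to S12: S1 to S3 are the MDA-MB-468 controls, S4 to S6 the MDA-MB-468 knockdown, S7 to S9 the HCC1187 controls and S10 to S12 the HCC1187 knockdown. MDA-MB-468 was kept in DMEM and HCC1187 in RPMI-1640, so line and medium cannot be told apart. Whether 1 hairpin or several were used, or whether separate cultures gave the libraries of each group, is not stated, so p-values measure only the spread between these libraries.

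The quantity followed is the difference between the lines: the log2 fold change of a gene upon knockdown in MDA-MB-468 minus that in HCC1187. A gene was called when its adjusted p was under 0.05 in the quasi-likelihood test of edgeR with Benjamini-Hochberg adjustment over all genes tested, and all adjusted p-values below come from that test. A called gene was opposite when it passed in each line by itself with contrary signs. It was restricted to 1 line when it passed there with an absolute log2 fold change of at least 1, did not pass in the other line, and the 95% interval of the other line lay within a 1.5-fold change either way. Every result was obtained with the 12 libraries and again with the 11 libraries left without S4. Levels are CPM, the counts of a gene relative to the TMM-scaled size of the library, from lane 1 of each library, and a value after ± is the standard error of a log2 fold change.

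SOX9-AS1, a gene for a long non-coding RNA, spans the SOX9 locus on the other strand. SOX9 encodes a transcription factor of progenitor cells in many epithelia, mammary epithelium among them. Several of the gene groups below answer to sensors of metabolic state: SREBP transcription factors raise sterol and fatty acid genes when membrane cholesterol is low, HIF factors raise glycolytic genes when oxygen is low, and ATF4 raises amino acid genes under nutrient or protein-folding stress. Others, such as FOS and the ETS factors ETV1, ETV4 and ETV5, lie downstream of growth factor and MAPK signalling.

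Total counts of the libraries ran from 6026376 to 10160040. Of 12513 genes compared, 111 lay at least 2-fold from the mean of their own controls in S4, against 877 in S5 and 963 in S6. The HCC1187 knockdown libraries had 478, 171 and 180 such genes and the controls 2 to 12. A control is itself part of the mean it was compared with, which lowers its count. S4 lay closer to the MDA-MB-468 controls than S5 and S6 did, and it is not among the libraries in the deposited phenotype table of that line. The lines also differ in identity: 16 basal keratin and epithelial markers summed to 9260 to 9370 CPM in the MDA-MB-468 controls and to 296 to 328 CPM in the HCC1187 controls, where 4 of the 16 were at 0. In the knockdown libraries these sums were 6960 to 9670 and 256 to 283 CPM. The 17 luminal epithelial markers were also higher in MDA-MB-468, at 8020 to 8470 CPM in its controls and 495 to 527 CPM in the HCC1187 controls. In the knockdown libraries they summed to 8410 to 9260 and 381 to 396 CPM. A list of 7 neuronal and embryonic genes such as NEFL and LIN28B, kept as a marker of HEK293 cells, summed to 525 to 560 CPM in the HCC1187 controls and to 282 to 340 after knockdown, with 6 of the 7 at 1 CPM or more in both. In MDA-MB-468 that list summed to between 2.76 and 8.73 CPM. The part of these markers in the results was not tested. For 192 genes over 30 CPM in the HCC1187 controls and under 0.5 CPM on average in MDA-MB-468, the summed level was 0.257% of that in the HCC1187 controls in S5 and 0.104% to 0.126% in the other MDA-MB-468 libraries. Gene examples were therefore taken where both lines had a mean of at least 1 CPM, unless stated.

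The targeted gene was checked first. SOX9-AS1 (chromosome 17, 72034107 to 72237203, minus strand, GRCh38) read 6.04, 7.24 and 6.52 CPM in the MDA-MB-468 controls and 5.63 in S4 and 5.06 and 5.51 in S5 and S6. It read 2.34, 1.44 and 1.76 CPM in the HCC1187 controls and 1.12, 0.689 and 0.796 after knockdown. The knockdown libraries lay below the controls in both lines, by little in MDA-MB-468. The log2 fold change with 12 libraries was -0.30 ± 0.21 (adjusted p = 0.397) in MDA-MB-468 and -1.06 ± 0.31 (adjusted p = 0.0457) in HCC1187. The difference of 0.77 ± 0.38 (adjusted p = 0.268) did not pass, and its 95% interval ran from -0.04 to 1.57. Without S4 the difference was 0.75 ± 0.43 (adjusted p = 0.213) and did not pass either. SOX9 itself (72121020 to 72126420, plus strand) stood at 229.7, 202 and 179.5 CPM in the MDA-MB-468 controls and 152 in S4 and 121 and 110.4 in S5 and S6, and at 14.1, 16.8 and 15.8 CPM in HCC1187 against 11.7, 12.6 and 8.76. Its groups did not overlap in either line, and the difference of -0.21 ± 0.22 (adjusted p = 0.625) did not pass either (interval -0.67 to 0.25). SOX9 lies within SOX9-AS1, and no source used here says whether reads were counted by strand, so reads of the pair may not be fully separated.

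Across the 12511 genes with at least 1 CPM in each line the log2 fold changes of the lines had r = 0.121 with 12 libraries, and 0.0888 across 12525 genes without S4, as a description only. With 12 libraries, 613 of 16328 genes differed between the lines (3.75%), 411 with the higher log2 fold change in MDA-MB-468 and 202 with the lower. In the lines themselves 887 genes (5.43%) passed in MDA-MB-468 and 1499 (9.18%) in HCC1187. Without S4, 4300 of 16807 genes differed (25.6%), 2212 higher and 2088 lower, and 5679 genes (33.8%) passed in MDA-MB-468 and 3409 (20.3%) in HCC1187. All 613 genes passed without S4 as well, with the same sign. The HCC1187 libraries were the same in both analyses. Spread was estimated over all groups in 1 fit, so the calls in HCC1187 also depend on the MDA-MB-468 libraries. The common biological coefficient of variation was 0.125 with 12 libraries and 0.0796 without S4. Scaling by library totals in place of TMM turned the split into 286 higher and 253 lower with 12 libraries and into 1807 higher and 2621 lower without S4. It moved the median difference of genes expressed in both lines to -0.074 and -0.080, from -0.005 and -0.002.

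The classes changed with S4. With 12 libraries 20 genes were opposite, 13 of them up in MDA-MB-468 and down in HCC1187 and 7 the other way, and 66 were restricted to 1 line, 18 to MDA-MB-468 and 48 to HCC1187. Without S4, 521 were opposite (323 and 198) and 420 were restricted, 380 to MDA-MB-468 and 40 to HCC1187. A further 126 genes passed in both lines with the same sign but different sizes, against 0 with 12 libraries. The 20 opposite genes were all in the larger class too (3.84% of it), and 46 of the 66 restricted genes (69.7%) were among the 420 (11%). With 12 libraries the opposite class was empty when S1, S2, S5 or S6 was left out, held 33 genes without S3 and 3 to 8 without any 1 library of HCC1187. With S4 already left out, it held 291 genes when S6 was also dropped and 340 without S8.

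**Figure D1:**
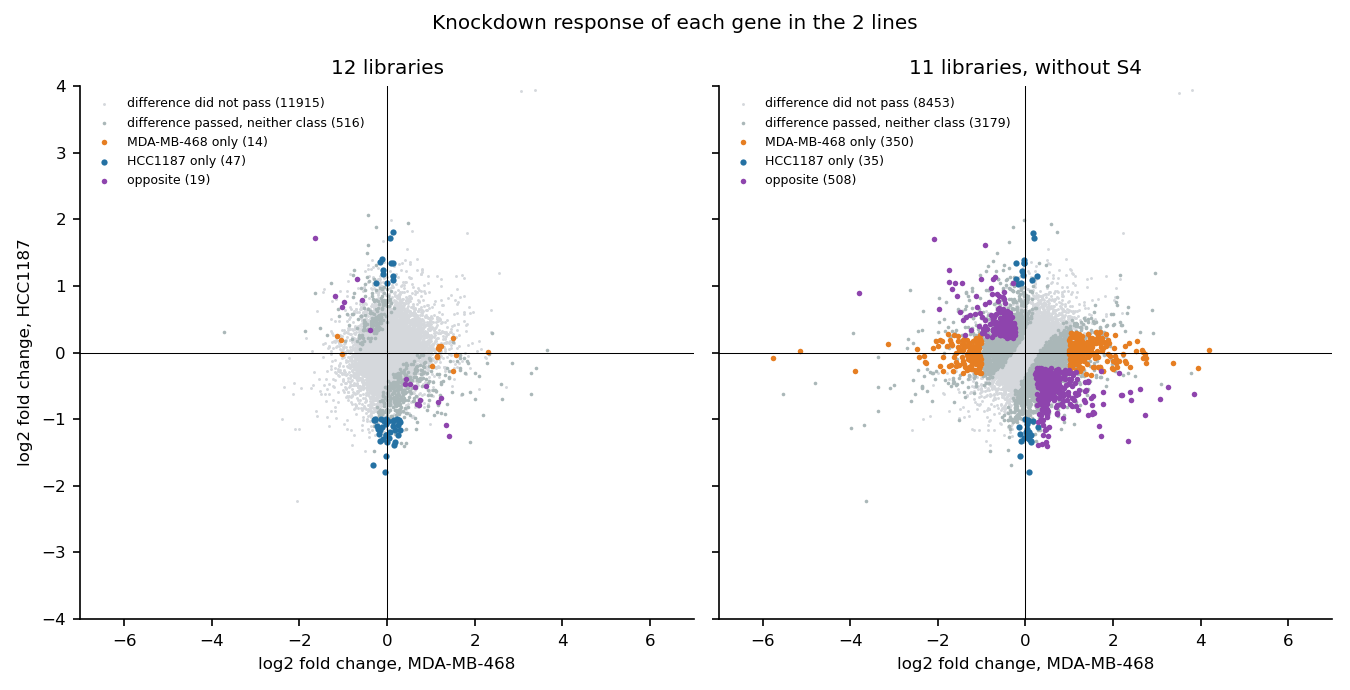
Log2 fold change upon knockdown in MDA-MB-468 (x axis) and HCC1187 (y axis) for genes with a mean of at least 1 CPM in each line, with 12 libraries on the left and without S4 on the right; each point is 1 gene. Purple points, the opposite genes, lie at the upper left and lower right and number 19 and 508; orange and blue points lie along the axes.

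Of the 13 genes that rose in MDA-MB-468 and fell in HCC1187 with 12 libraries, 12 had at least 1 CPM in each line. FOS read 5.15, 7.38 and 9.84 CPM in the MDA-MB-468 controls and 10.9 in S4 and 26.4 and 22.5 in S5 and S6, and 8.98, 11.4 and 13.2 CPM in the HCC1187 controls against 4.63, 5.24 and 3.98 after knockdown. FOS, a subunit of the AP-1 factor and a classic immediate-early gene, was thus highest in S5 and S6 of all libraries and fell below every HCC1187 control in S10 to S12, with no overlap between groups in either line. Its log2 fold change with 12 libraries was 1.43 ± 0.29 (adjusted p = 0.0241) in MDA-MB-468 and -1.25 ± 0.31 (adjusted p = 0.0226) in HCC1187, a difference of 2.67 ± 0.43 (adjusted p = 0.00464). The level of BCL6 in MDA-MB-468 was 72, 72 and 81.4 CPM in the controls and 97.5 in S4 and 132 and 133 in S5 and S6, and in HCC1187 it was 13.9, 13.7 and 16.8 CPM against 6.32, 8.27 and 10.2. BCL6 is a transcriptional repressor, better expressed in MDA-MB-468 than in HCC1187, and its difference was 1.45 ± 0.23 (adjusted p = 0.00464). For H1-2 the MDA-MB-468 controls held 5.04, 4.78 and 4.47 CPM and the knockdown libraries 7.4 in S4 and 12.8 and 11.9 in S5 and S6, and the HCC1187 libraries held 37.8, 44.8 and 49.7 CPM before and 24.4, 27.3 and 25.2 after. H1-2 is a linker histone, and its levels moved toward each other, with a difference of 1.9 ± 0.26 (adjusted p = 0.00211). KDELR3, a receptor that returns ER proteins from the Golgi, went from 10.4, 10.1 and 13.4 CPM to 19.1 in S4 and 15.3 and 21.9 in S5 and S6 in MDA-MB-468 and from 71.5, 74.9 and 77.4 to 35.4, 46 and 44.4 in HCC1187. In these 4 genes S4 lay above the highest MDA-MB-468 control, and for KDELR3 it lay above S5 as well. The class was formed with S4 included, so this position of S4 follows partly from the choice of genes. S4 lay above the control mean in all 12 genes, against 52.9% of all genes with at least 1 CPM in each line.

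Other genes of that group covered several functions. TGFBR3, the TGF-beta co-receptor betaglycan, differed by 1.9 ± 0.35 (adjusted p = 0.0112), from 3.13, 2.87 and 1.41 CPM to 3.38 in S4 and 7.86 and 6.13 in S5 and S6 in MDA-MB-468 against 42.5, 48.1 and 49.2 and 26, 29.9 and 28.7 in HCC1187. REC8, a cohesin subunit of meiosis, differed by 2.44 ± 0.47 (adjusted p = 0.0133) and FAM117A by 1.47 ± 0.27 (adjusted p = 0.0103). ERBB3, a receptor of the EGFR family, moved less, by 0.42 ± 0.11 (adjusted p = 0.0406) and -0.48 ± 0.11 (adjusted p = 0.0163), but its libraries were tight: 69.2, 68.2 and 75.4 CPM in the MDA-MB-468 controls, 81.2 in S4 and 101 and 104 in S5 and S6, and 47, 43.8 and 43.2 against 29.4, 31.2 and 32.7 in HCC1187. CYFIP1 had the smallest adjusted p of the difference, with 12 libraries, among the genes described here. It encodes a subunit of the WAVE complex, which drives branched actin at the cell edge. For CYFIP1 the MDA-MB-468 controls held 143, 138 and 136 CPM and the knockdown libraries 151 in S4 and 204 and 189 in S5 and S6, and the HCC1187 libraries held 117, 119.8 and 128 CPM before and 42.4, 43.9 and 47.8 after. Its fall in HCC1187 was -1.4 ± 0.11 (adjusted p = 7.33e-06), its rise in MDA-MB-468 0.38 ± 0.11 (adjusted p = 0.0507) with 12 libraries and 0.50 ± 0.09 (adjusted p = 4.79e-05) without S4, so that it counted as opposite only in the latter, and the difference was 1.78 ± 0.15 (adjusted p = 9.72e-05) and 1.9 ± 0.12 (adjusted p = 4.38e-12).

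Without S4 further genes of this direction passed in both lines. The level of PPP1R3C in MDA-MB-468 was 22.5, 21.2 and 22.2 CPM in the controls and 18.3 in S4 and 60.5 and 66.8 in S5 and S6, and in HCC1187 it was 13.2, 15.7 and 16.8 CPM against 6.88, 7.45 and 9.2. PPP1R3C, which brings protein phosphatase 1 to glycogen, had a difference of 2.42 ± 0.19 (adjusted p = 5.14e-10), while S4 read below all 3 controls. ETV1, an ETS transcription factor, went from 1.34, 2.73 and 1.28 CPM to 1.77 in S4 and 8.29 and 9.65 in S5 and S6 in MDA-MB-468 and from 2.15, 2.1 and 2.7 to 0.702, 0.551 and 1.24 in HCC1187, a difference of 3.67 ± 0.47 (adjusted p = 1.68e-06). FBLN5, a protein of elastic fibres, differed by 2.37 ± 0.24 (adjusted p = 4.26e-08) and the LIM protein CRIP2 by 2.48 ± 0.35 (adjusted p = 7.1e-06). VIM, the mesenchymal intermediate filament vimentin, rose by 1.05 ± 0.10 (adjusted p = 3.03e-09) in MDA-MB-468 and fell by 0.30 ± 0.08 (adjusted p = 0.00894) in HCC1187, where its level was far higher. CDH3, P-cadherin, went 0.61 and -0.53, and CD24, a surface glycoprotein of luminal cells, 0.47 and -0.65. All 3 passed in each line without S4, and their differences were 1.36, 1.15 and 1.12. With 12 libraries the difference passed for VIM and CDH3 and not for CD24. The list of epithelial-mesenchymal transition markers, which holds VIM and CDH3, had 4 of 20 genes higher and 1 lower without S4. Of its members 5 rose and 5 fell in MDA-MB-468 without S4, where 33.8% of all genes passed. With 12 libraries 3 rose and 0 fell there, against 5.43% of all genes. Of 16 luminal markers tested without S4, CD24 among them, the difference was higher for 2 and lower for 2. For both lists the counts of the difference are to be read against the 25.6% of all genes. Of 15 basal epithelial markers tested without S4, 1 rose and 10 fell in MDA-MB-468, with a median of -1.02. Over all genes 33.8% passed in that line without S4. With 12 libraries 1 marker rose and 3 fell there, with a median of -0.70, against 5.43% of all genes. The difference was higher for 1 marker and lower for 3 without S4, a share near the 25.6% of all genes.

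**Figure D2:**
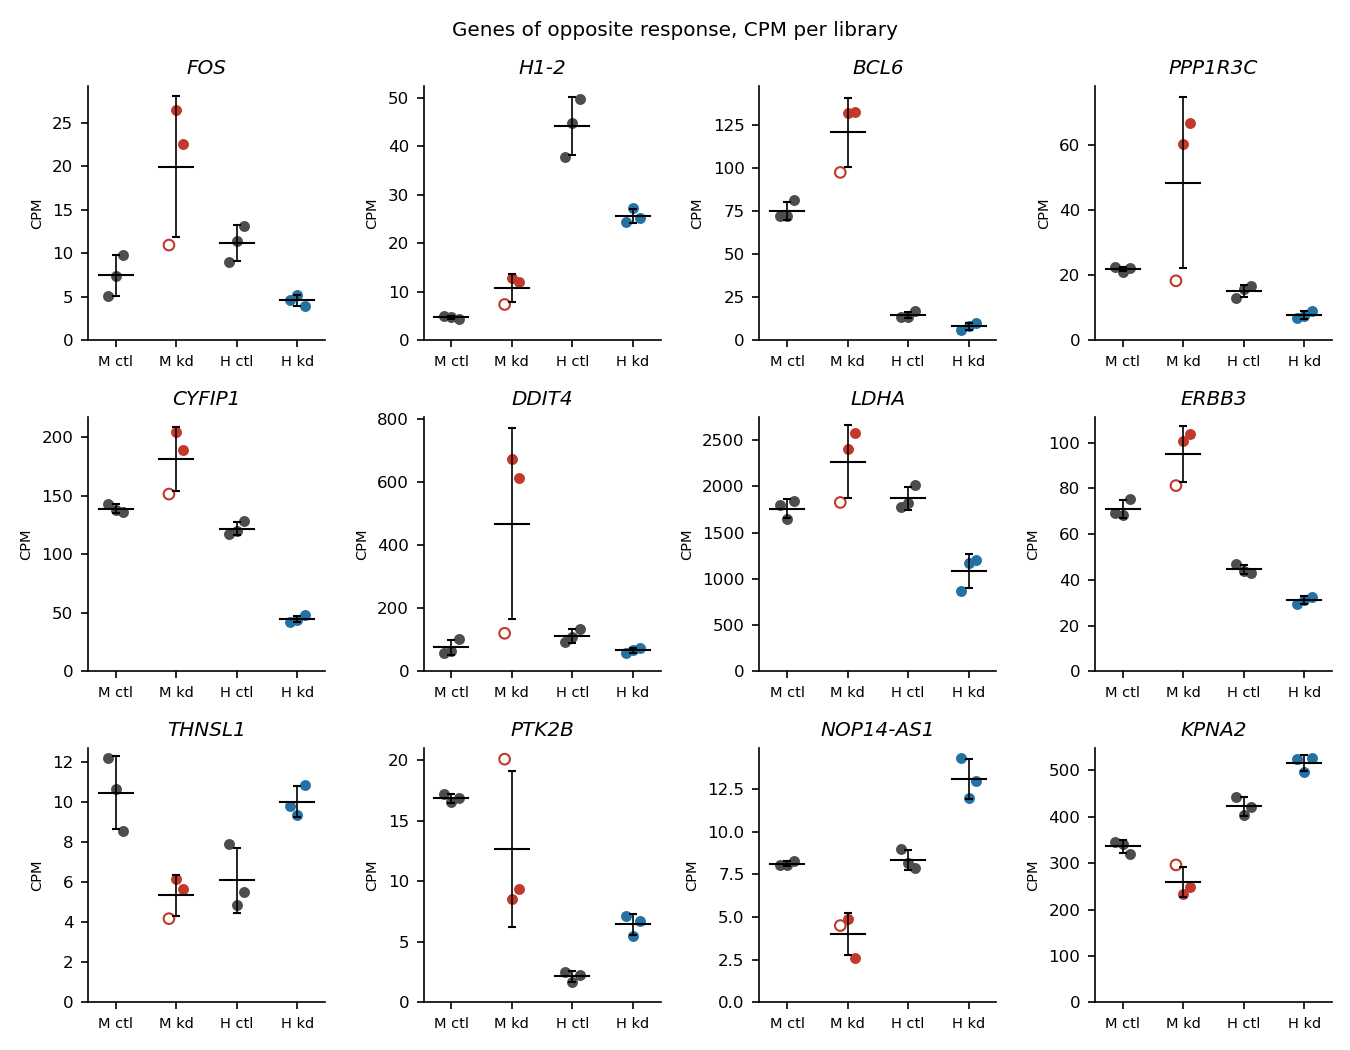
CPM per library (y axis, linear from 0) of 12 genes that were opposite in 1 or both analyses (with 12 libraries, without S4), in the 4 groups (x axis: M, MDA-MB-468; H, HCC1187; ctl, control; kd, knockdown). Points are libraries, the open circle is S4, and bars give the mean and SD of 3 libraries; in the lower row the MDA-MB-468 knockdown lies low and the HCC1187 knockdown high, except S4 for PTK2B.

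Genes that fell in MDA-MB-468 and rose in HCC1187 included an antisense RNA gene. NOP14-AS1, antisense to NOP14, went from 8.06, 8.06 and 8.3 CPM to 4.5 in S4 and 4.92 and 2.6 in S5 and S6 in MDA-MB-468 and from 8.98, 8.17 and 7.89 to 14.3, 12 and 13 in HCC1187, a difference of -1.72 ± 0.28 (adjusted p = 0.00464). All 3 MDA-MB-468 knockdown libraries lay below the controls and all 3 of HCC1187 above. NOP14-AS1 was taken from the class formed with S4 included, so this order follows partly from the choice. Because counting by strand is not stated, its value is uncertain. THNSL1, a threonine synthase-like protein, read 12.2, 10.7 and 8.56 CPM and 4.18 in S4 and 6.18 and 5.67 in S5 and S6 in MDA-MB-468 and 7.91, 4.86 and 5.5 against 9.83, 9.38 and 10.9 in HCC1187. Its difference was -1.73 ± 0.31 (adjusted p = 0.0095), and S4 was the lowest library of its line.

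KPNA2 and PTK2B also had this direction. For KPNA2 the MDA-MB-468 controls held 347, 342 and 319 CPM and the knockdown libraries 296 in S4 and 233 and 249.5 in S5 and S6, and the HCC1187 libraries held 444, 403 and 421 CPM before and 524, 497 and 528 after. KPNA2 is an importin that carries proteins into the nucleus, and its small, steady changes of -0.38 ± 0.10 (adjusted p = 0.0361) and 0.33 ± 0.09 (adjusted p = 0.0377) gave a difference of -0.71 ± 0.13 (adjusted p = 0.0112). The level of PTK2B in MDA-MB-468 was 17.2, 16.5 and 16.9 CPM in the controls and 20.1 in S4 and 8.57 and 9.34 in S5 and S6, and in HCC1187 it was 2.54, 1.66 and 2.28 CPM against 7.16, 5.51 and 6.72. PTK2B, the PYK2 kinase of the focal adhesion family, differed by -2.05 ± 0.41 (adjusted p = 0.0151) with 12 libraries and -2.52 ± 0.28 (adjusted p = 1.93e-07) without S4, and S4 was the highest library of its line. FAM86C1, which belongs to a family of near-identical copies and is therefore uncertain, differed by -1.75 ± 0.28 (adjusted p = 3.58e-05) without S4. DNAH17, an axonemal dynein, and PRRT3 passed only without S4, at -2.99 ± 0.51 (adjusted p = 7.04e-05) and -2.65 ± 0.59 (adjusted p = 0.00142), and S4 was the highest MDA-MB-468 library for both. Over the whole class without S4, lncRNA genes made up 7.85% of the genes that fell in MDA-MB-468 and rose in HCC1187, 2.84% of those of the reverse direction, and 6.4% of all genes with at least 1 CPM in each line.

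Of the lists described, cholesterol synthesis had the largest median difference between the lines. Of 22 genes on that list, 20 had the higher log2 fold change in MDA-MB-468 without S4 and 1 the lower, with median log2 fold changes of 2.07 in MDA-MB-468 and -0.09 in HCC1187. With 12 libraries 5 and 1 passed, and the median difference was 1.69 in place of 2.14. Over all genes tested the median difference was -0.01 with either set of libraries. Within the list 11 genes were restricted to MDA-MB-468 and 5 were opposite without S4. Of all 16807 genes tested without S4, 380 were restricted to MDA-MB-468 and 521 were opposite. The companion list of SREBP control and sterol uptake had 9 of 14 genes higher and 1 lower without S4 (2 and 0 with 12 libraries). Over all genes 25.6% differed without S4 and 3.75% with 12 libraries. Fatty acid and triglyceride synthesis had 14 of 26 higher and 4 lower (7 and 0).

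Promoters of 3 of these genes are shown because members of the group moved together. The sequences come from RefSeq (GRCh38.p14), 250 bases before to 50 after the start of the gene, 5′ to 3′ on the strand of the gene. INSIG1 is at chr7:155297628-155297927 on the plus strand, SREBF2 at chr22:41832855-41833154 on the plus strand and MSMO1 at chr4:165327419-165327718 on the plus strand. Capitals mark CCAAT, the core read by NF-Y, on either strand, and in SREBF2 also TCACNCCAC, a form of the sterol element read by SREBP, searched on both strands.
INSIG1: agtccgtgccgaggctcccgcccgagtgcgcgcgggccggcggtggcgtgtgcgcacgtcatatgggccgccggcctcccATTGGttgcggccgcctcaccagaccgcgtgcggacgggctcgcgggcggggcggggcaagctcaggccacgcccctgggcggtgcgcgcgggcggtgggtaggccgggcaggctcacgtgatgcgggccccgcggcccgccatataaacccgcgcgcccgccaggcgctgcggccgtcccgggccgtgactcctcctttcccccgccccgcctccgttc
SREBF2: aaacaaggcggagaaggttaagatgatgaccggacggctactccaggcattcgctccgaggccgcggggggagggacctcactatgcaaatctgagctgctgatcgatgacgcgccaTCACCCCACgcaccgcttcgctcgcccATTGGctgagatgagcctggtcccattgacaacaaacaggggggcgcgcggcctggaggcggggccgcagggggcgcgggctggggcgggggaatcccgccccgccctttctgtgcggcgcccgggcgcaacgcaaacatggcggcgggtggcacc
MSMO1: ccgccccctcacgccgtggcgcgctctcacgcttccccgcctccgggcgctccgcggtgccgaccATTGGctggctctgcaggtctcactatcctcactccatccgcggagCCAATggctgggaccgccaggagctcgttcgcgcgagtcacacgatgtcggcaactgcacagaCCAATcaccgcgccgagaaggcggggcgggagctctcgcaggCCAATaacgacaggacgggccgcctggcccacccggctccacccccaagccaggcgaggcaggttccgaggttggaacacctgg
TCACNCCAC occurred in 1.15% of the 27305 promoters of the table and in 0 of the 17 cholesterol synthesis promoters matched, and among the lipid genes named here that the table holds they were found in this window for SREBF2 only. CCAAT was in 35.7% of all promoters and in 12 of those 17, with 4 copies in MSMO1. A match is only a description of the letters.

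The level of INSIG1 in MDA-MB-468 was 25.8, 16.5 and 8.82 CPM in the controls and 7.4 in S4 and 242 and 257 in S5 and S6, and in HCC1187 it was 198, 268 and 283 CPM against 125, 171 and 175. INSIG1, which holds SREBP in the ER when sterols are plentiful, was thus far above the controls in S5 and S6, lowest of its line in S4, and lower in every HCC1187 knockdown library than in the HCC1187 controls. The difference was 4.48 ± 0.26 (adjusted p = 7.62e-13) without S4 and 3.92 ± 0.96 (adjusted p = 0.0388) with 12 libraries. MSMO1 read 56.6, 37 and 19.8 CPM in the MDA-MB-468 controls and 20.4 in S4 and 211 and 292 in S5 and S6, and 72.4, 101 and 113 CPM in the HCC1187 controls against 31.9, 50.3 and 61.4 after knockdown. MSMO1, a demethylating enzyme of sterol synthesis, was opposite without S4, with 2.72 ± 0.23 (adjusted p = 7.74e-10) in MDA-MB-468 and -0.94 ± 0.21 (adjusted p = 0.00247) in HCC1187. STARD4, a cytosolic sterol carrier, was opposite too (2.2 and -0.64).

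For MVD the MDA-MB-468 controls held 76, 73.8 and 75 CPM and the knockdown libraries 77.4 in S4 and 548 and 466 in S5 and S6, and the HCC1187 libraries held 32.2, 39.4 and 45.4 CPM before and 36.2, 31.9 and 33.7 after. MVD, mevalonate diphosphate decarboxylase, differed by 2.92 ± 0.15 (adjusted p = 1.46e-13), and its HCC1187 interval without S4 ran from -0.39 to 0.06. FDFT1, squalene synthase, and DHCR7, the last enzyme of the pathway, rose by 2.3 ± 0.09 (adjusted p = 5.12e-17) and 2.75 ± 0.12 (adjusted p = 3.21e-16) in MDA-MB-468 and read -0.15 and -0.09 in HCC1187, where neither passed. The 2 SREBP genes rose in MDA-MB-468 by 1.12 (SREBF2) and 1.43 (SREBF1), and neither passed in HCC1187, at -0.13 and 0.12.

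Fatty acid genes moved in 1 line or the other. SCD read 178, 173 and 199.7 CPM in the MDA-MB-468 controls and 211 in S4 and 2777 and 2864 in S5 and S6, and 618, 664 and 762 CPM in the HCC1187 controls against 487, 599 and 608 after knockdown. SCD, the main stearoyl-CoA desaturase, rose by 3.94 ± 0.10 (adjusted p = 1.02e-20) in MDA-MB-468 without S4 and read -0.23 ± 0.09 (adjusted p = 0.0592) in HCC1187, and the difference was 4.17 ± 0.13 (adjusted p = 2.24e-18). With 12 libraries that difference was 3.64 ± 0.78 (adjusted p = 0.0217), so it passed with S4 included, although S4 lay only just above the highest control. PNPLA3, a lipase of lipid droplets, rose from 2.69, 2.32 and 1.41 CPM to 3.22 in S4 and 29.5 and 30.6 in S5 and S6, while HCC1187 held 13.8, 18.3 and 15.9 before and 11.1, 14.2 and 12.3 after. FASN, fatty acid synthase, ACLY and ACSS2, which make its acetyl-CoA, and FADS2, a polyunsaturated desaturase, were restricted to MDA-MB-468 without S4, at 2.28, 1.43, 1.76 and 2.74. The second desaturase, SCD5, fell instead in HCC1187. The level of SCD5 in MDA-MB-468 was 43.5, 38.3 and 41.7 CPM in the controls and 33.5 in S4 and 30.3 and 35.7 in S5 and S6, and in HCC1187 it was 39.8, 44.5 and 41.1 CPM against 13.1, 11.2 and 13.4. Its log2 fold change was -1.69 ± 0.12 (adjusted p = 4.8e-06) in HCC1187 and -0.32 ± 0.12 (adjusted p = 0.104) in MDA-MB-468, a difference of 1.36 ± 0.17 (adjusted p = 0.00112). INSIG2, a relative of INSIG1, fell by 1.17 ± 0.16 (adjusted p = 0.000557) in HCC1187, against 0.19 ± 0.16 (adjusted p = 0.488) in MDA-MB-468.

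**Figure D3:**
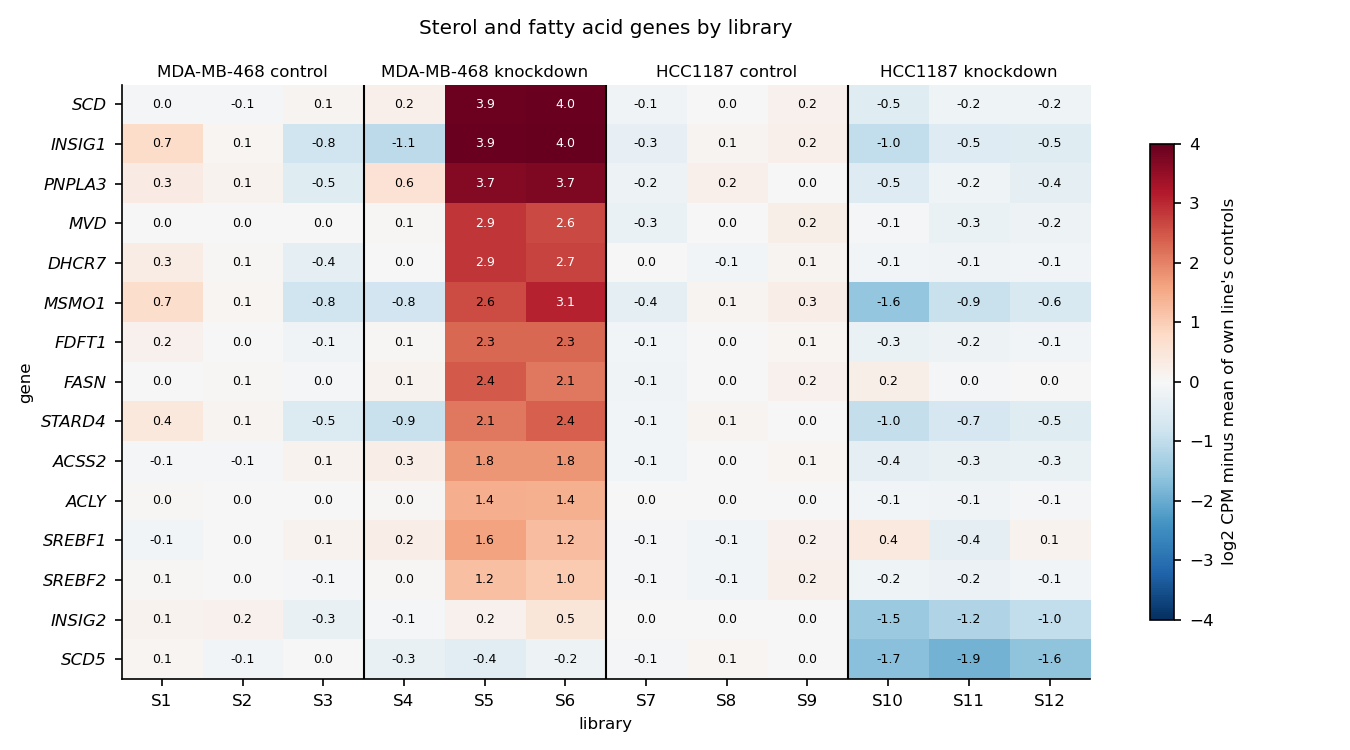
Log2 CPM of 15 sterol and fatty acid genes (rows) in each library (columns) minus the mean of the controls of the same line, with a prior count of 2; red is above and blue below those controls. S5 and S6 are red in all rows from SCD to SREBF2, S4 lies far below S5 and S6 in each of those rows, from -1.05 for INSIG1 to 0.58 for PNPLA3, and after knockdown in HCC1187 the bluest rows are MSMO1, INSIG2 and SCD5.

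Of 24 fatty acid oxidation genes tested, 5 were higher and 5 lower in MDA-MB-468 without S4, against 25.6% of all genes in either direction, and 1 and 2 with 12 libraries. CPT1A, which admits fatty acids to mitochondria, fell in MDA-MB-468 by 1.05 ± 0.10 (adjusted p = 2.17e-09) and read 0.20 ± 0.09 (adjusted p = 0.137) in HCC1187. CPT2 and ECHS1, a carnitine transferase and a hydratase of the same path, rose instead in HCC1187, by 0.71 ± 0.10 (adjusted p = 9.43e-06) and 0.70 ± 0.09 (adjusted p = 2.91e-06), with -0.10 and -0.01 in MDA-MB-468. HADHA, the trifunctional enzyme, was opposite without S4, at 0.38 in MDA-MB-468 and -0.25 in HCC1187.

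Among 18 hypoxia-induced genes 7 rose and 2 fell in MDA-MB-468 without S4, and 0 rose and 8 fell in HCC1187. Without S4 11 of them had the higher log2 fold change in MDA-MB-468 and 0 the lower. Over all genes 25.6% differed in either direction, 33.8% passed in MDA-MB-468 and 20.3% in HCC1187. With 12 libraries 6 and 0 passed, against 3.75% of all genes, and the list medians were 0.33 and -0.31 in the 2 lines. By library, the median log2 deviation of the list from the HCC1187 controls was -0.794 in S10, -0.175 in S11 and -0.262 in S12. In the HCC1187 controls themselves it ran from -0.163 to 0.176. In MDA-MB-468 it was 0.323 to 0.391 after knockdown and -0.091 to 0.243 in the controls. For glycolysis 9 of 23 were higher and 0 lower without S4, and 4 and 0 with 12 libraries, to be read against the same shares. In MDA-MB-468 alone 10 glycolytic genes rose and 5 fell without S4, and in HCC1187 0 rose and 7 fell.

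For DDIT4 the MDA-MB-468 controls held 58.2, 65.9 and 104 CPM and the knockdown libraries 121 in S4 and 672 and 612 in S5 and S6, and the HCC1187 libraries held 92.3, 109 and 135 CPM before and 59.3, 66.6 and 75.4 after. DDIT4, an inhibitor of mTORC1 induced by low oxygen and other stress, differed by 3.32 ± 0.60 (adjusted p = 0.00965) with 12 libraries and 3.77 ± 0.21 (adjusted p = 6.79e-13) without S4. LDHA read 1798, 1644 and 1837 CPM in the MDA-MB-468 controls and 1825 in S4 and 2405 and 2571 in S5 and S6, and 1771, 1821 and 2012 CPM in the HCC1187 controls against 869.8, 1171 and 1203 after knockdown. LDHA, lactate dehydrogenase, is among the most abundant transcripts here, and its change of 0.50 ± 0.10 (adjusted p = 0.00037) in MDA-MB-468 and -0.75 ± 0.09 (adjusted p = 1.46e-06) in HCC1187 made it opposite without S4. The promoters of both genes are shown in the same form as above, at chr10:72273674-72273973 on the plus strand and chr11:18394313-18394612 on the plus strand. Capitals mark ACGTG, the core of the element read by HIF, on either strand; as CACGTG holds the core on both strands, it counts as a pair of overlapping matches.
DDIT4: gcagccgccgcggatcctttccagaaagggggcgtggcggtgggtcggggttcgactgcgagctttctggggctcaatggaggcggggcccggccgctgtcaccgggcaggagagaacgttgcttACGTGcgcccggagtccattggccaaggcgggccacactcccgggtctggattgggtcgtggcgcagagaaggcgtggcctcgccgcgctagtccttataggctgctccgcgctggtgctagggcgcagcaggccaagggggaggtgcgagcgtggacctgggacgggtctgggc
LDHA: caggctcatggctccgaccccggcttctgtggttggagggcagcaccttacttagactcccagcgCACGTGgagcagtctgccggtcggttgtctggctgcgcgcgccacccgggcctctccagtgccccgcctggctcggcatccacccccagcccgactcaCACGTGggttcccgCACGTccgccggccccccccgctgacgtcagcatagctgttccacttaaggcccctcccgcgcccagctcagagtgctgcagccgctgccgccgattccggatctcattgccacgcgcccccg
ACGTG occurred in 21.6% of all 27305 promoters, in 10 of 15 hypoxia-induced promoters matched and in 8 of 21 glycolytic ones. PGK1, a glycolytic kinase, went from 1116, 1143 and 1326 CPM to 1395 in S4 and 2051 and 2031 in S5 and S6 in MDA-MB-468 and from 1382, 1508 and 1794 to 1049, 1195 and 1294 in HCC1187, with a difference of 0.97 ± 0.20 (adjusted p = 0.0199) in 12 libraries. PFKFB4, which makes the activator of phosphofructokinase, differed by 1.67 ± 0.28 (adjusted p = 0.00694). VEGFA, the angiogenic growth factor, rose by 1.3 in MDA-MB-468 alone without S4, and BNIP3L, a receptor of mitophagy, was opposite (1.00 and -0.40). P4HA1, a collagen prolyl hydroxylase, mainly fell in HCC1187, from 231, 278 and 298 CPM to 104, 165 and 157, against 29.9, 28 and 37.8 and 28.8 in S4 and 41.1 and 43.3 in S5 and S6 in MDA-MB-468.

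Genes of the ATF4 and serine response had 10 of 20 members higher and 2 lower without S4, and 3 and 0 with 12 libraries, where 25.6% and 3.75% of all genes differed. SLC7A11, the cystine importer, read 18, 16.7 and 13.3 CPM in the MDA-MB-468 controls and 12.9 in S4 and 23.2 and 29.6 in S5 and S6, and 14.3, 13.8 and 10.3 against 6.46, 6.34 and 6.99 in HCC1187. Its difference was 1.35 ± 0.35 (adjusted p = 0.0458) with 12 libraries, where S4 lay below the controls. MTHFD2, of mitochondrial one-carbon metabolism, was opposite without S4 (0.50 and -0.31), and the pseudokinase TRIB3 rose by 1.05 in MDA-MB-468 alone. XBP1, the factor of the unfolded protein response, was opposite without S4, at 0.56 ± 0.09 (adjusted p = 2.02e-05) and -0.45 ± 0.09 (adjusted p = 0.000376). The list of ER chaperones and the unfolded protein response, which holds XBP1, had 2 of 20 genes higher and 2 lower without S4. That share is under the 25.6% of all genes, and the list medians were -0.16 in MDA-MB-468 and -0.10 in HCC1187. With 12 libraries 1 and 1 of the list passed.

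**Figure D4:**
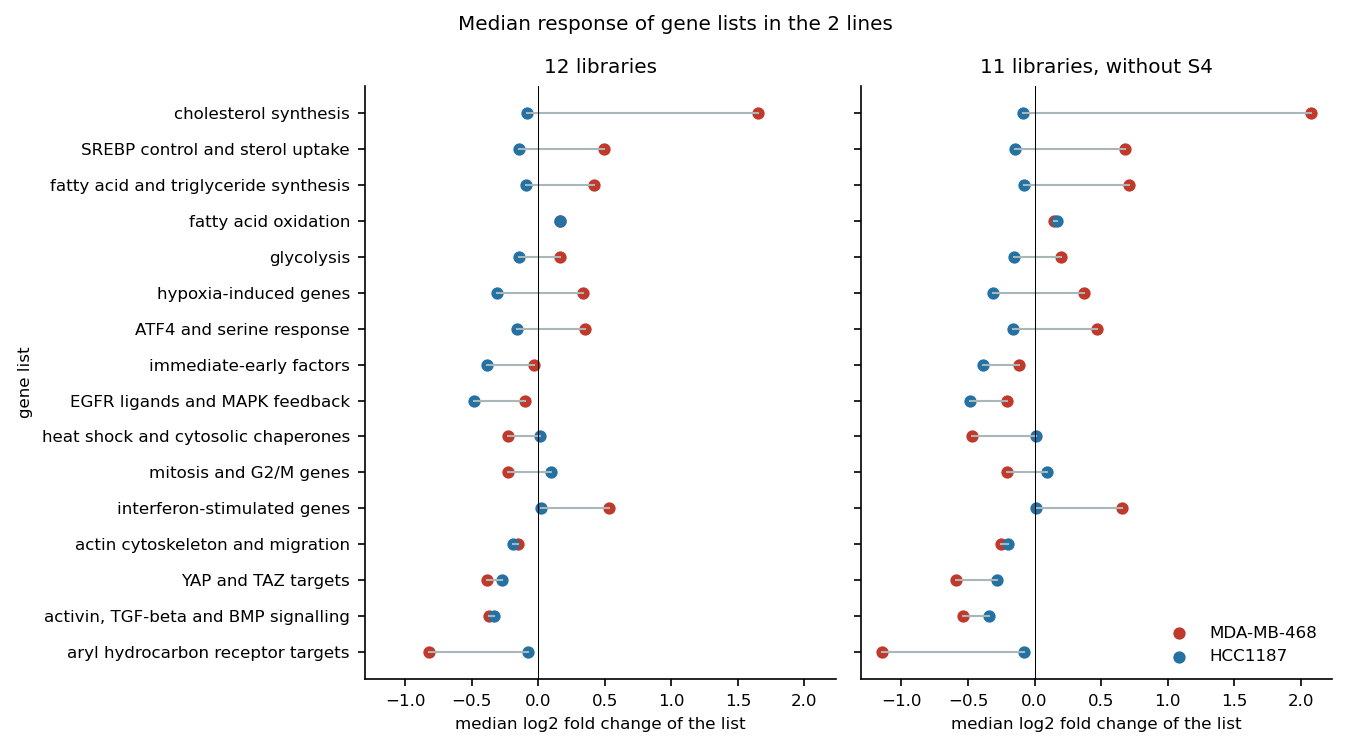
Median log2 fold change upon knockdown (x axis) of 16 gene lists (rows) in MDA-MB-468 (red) and HCC1187 (blue), with 12 libraries on the left and without S4 on the right; a grey line joins the 2 lines. Cholesterol synthesis is farthest to the right in MDA-MB-468 and close to 0 in HCC1187; the medians carry no test.

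Immediate-early and MAPK-dependent genes moved both ways in MDA-MB-468, and those that passed in HCC1187 all fell there. Of 19 immediate-early factors tested, 8 were higher and 5 lower in MDA-MB-468 without S4, 3 and 0 with 12 libraries, against 25.6% and 3.75% of all genes in either direction. Without S4, 4 rose and 8 fell in MDA-MB-468 (33.8% of all genes passed there) and 0 rose and 12 fell in HCC1187 (20.3%), so that 4 were opposite and 3 differed within the same direction. ATF3, a stress-induced repressor, and BTG2, an antiproliferative gene, were opposite like FOS without S4, with differences of 1.37 ± 0.27 (adjusted p = 0.000353) and 1.61 ± 0.32 (adjusted p = 0.00054). FOSL1, the FOS relative of invasive cells, went the other way. The level of FOSL1 in MDA-MB-468 was 37.6, 42.1 and 57.9 CPM in the controls and 60.3 in S4 and 9.69 and 7.96 in S5 and S6, and in HCC1187 it was 5.27, 4.86 and 5.6 CPM against 5.9, 7.03 and 6.55. Its difference was -2.71 ± 0.28 (adjusted p = 5.2e-08) without S4 and did not pass with 12 libraries, S4 reading above every control. ETV4 and ETV5, ETS factors induced by MAPK signalling, were opposite without S4: ETV5 read 13.7, 14.3 and 17.9 CPM and 20.4 in S4 and 21.6 and 20.7 in S5 and S6 in MDA-MB-468, and 2.64, 2.54 and 2.8 against 0.983, 1.24 and 1.24 in HCC1187. Their differences with 12 libraries were 1.45 ± 0.33 (adjusted p = 0.0288) for ETV4 and 1.58 ± 0.29 (adjusted p = 0.00989) for ETV5. Of 21 EGFR ligands and MAPK feedback genes, 8 were higher and 2 lower without S4, 4 and 0 with 12 libraries. Without S4 3 of the 21 were opposite, ETV4 and ETV5 among them. In MDA-MB-468 6 rose and 8 fell without S4, and in HCC1187 0 rose and 10 fell. Over all genes 25.6% differed without S4 and 3.75% with 12 libraries. Of all 16807 genes tested without S4, 521 were opposite.

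Chaperones and mitotic genes had the reverse order. Of 18 heat shock and cytosolic chaperone genes, 10 had the lower log2 fold change in MDA-MB-468 without S4 and 1 the higher, against 25.6% of all genes in either direction. With 12 libraries 0 of 18 passed in edgeR, against 3.75% of all genes, and 5 had an unadjusted p under 0.05. For HSPA8 the MDA-MB-468 controls held 4813, 4735 and 5029 CPM and the knockdown libraries 4626 in S4 and 2555 and 2769 in S5 and S6, and the HCC1187 libraries held 660.0, 636 and 642 CPM before and 731, 752 and 758 after. HSPA8, the constitutive HSP70, was opposite without S4, at -0.87 ± 0.08 (adjusted p = 6.23e-09) and 0.25 ± 0.07 (adjusted p = 0.0173), and so was DNAJB1, an HSP40, at -0.48 and 0.26. HSPA1A, the inducible HSP70, which has a near-identical copy and is uncertain, fell by 1.04 ± 0.14 (adjusted p = 1.12e-06) in MDA-MB-468 alone. Of 30 mitosis and G2/M genes, 12 were lower and 2 higher without S4, and 3 and 0 with 12 libraries, where 25.6% and 3.75% of all genes differed. PLK1, a mitotic kinase, CDC20, an activator of the anaphase-promoting complex, and CENPA, the centromeric histone, fell in MDA-MB-468 by 0.65, 0.52 and 0.48 without S4 and rose in HCC1187 by 0.34, 0.31 and 0.47. CDC25B, a mitotic phosphatase, was opposite as well, with a difference of -0.83 ± 0.13 (adjusted p = 1.74e-05). MKI67, the proliferation antigen, was lower than the controls in every MDA-MB-468 knockdown library, S4 included (564, 558 and 518 CPM against 454 in S4 and 402 and 395 in S5 and S6), and its difference of -0.57 ± 0.12 (adjusted p = 0.0228) passed with 12 libraries.

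Of 27 interferon-stimulated genes tested, 13 rose and 1 fell in MDA-MB-468 without S4, and 1 rose and 1 fell in HCC1187. The difference was higher in MDA-MB-468 for 12 and lower for 1, with a median of 0.65 in MDA-MB-468 and 0.01 in HCC1187. Over all genes 25.6% differed and 33.8% passed in MDA-MB-468. With 12 libraries 1 and 0 of 27 passed, a share near the 3.75% of all genes. IRF9 and STAT2, both parts of the interferon-activated transcription factor, rose by 1.84 ± 0.32 (adjusted p = 6.27e-05) and 0.65 ± 0.11 (adjusted p = 2.79e-05), and the membrane protein IFITM1 by 1.06 ± 0.21 (adjusted p = 0.000251). In HCC1187 these 3 genes read -0.51, -0.05 and -0.20, and none of them passed there. Of 13 genes of microRNA and shRNA processing, the machinery through which an shRNA acts, 1 was higher and 4 were lower in MDA-MB-468 without S4, against 25.6% of all genes in either direction, and 8 did not pass. With 12 libraries 0 and 1 passed. AGO2, the slicing Argonaute, read 98.3, 115 and 105 CPM in the MDA-MB-468 controls and 99 in S4 and 65.6 and 60.3 in S5 and S6, and 230.0, 256 and 268 against 269.8, 303 and 266 in HCC1187, a difference of -0.95 ± 0.13 (adjusted p = 6.15e-06). AGO4, an Argonaute without slicing activity, moved the other way, at 0.92 ± 0.14 (adjusted p = 1.99e-05), and TNRC6A, a partner of the Argonautes, was opposite, with -0.45 in MDA-MB-468 and 0.30 in HCC1187.

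Restriction to MDA-MB-468 was called for few genes with S4 and for many without it. With 12 libraries, 15 genes rose and 3 fell in that line only. NFATC4 read 2.35, 2.19 and 3.45 CPM in the MDA-MB-468 controls and 5.31 in S4 and 17.8 and 16.5 in S5 and S6, and 72.4, 73.1 and 82.6 CPM in the HCC1187 controls against 78.4, 65.1 and 79.6 after knockdown. NFATC4, a calcium-dependent transcription factor, was thus higher in all 3 knockdown libraries, with 2.31 ± 0.36 (adjusted p = 0.0221) in MDA-MB-468 and an HCC1187 interval from -0.48 to 0.50. SMARCA1, an ISWI chromatin remodeller, did the same at a difference of 1.62 ± 0.36 (adjusted p = 0.025). Both genes were lower in MDA-MB-468 than in HCC1187 and stayed lower after knockdown. COL4A1, a collagen IV chain, and ZNF829, a zinc finger gene, fell in MDA-MB-468 only, with differences of -1.38 ± 0.34 (adjusted p = 0.0412) and -1.24 ± 0.23 (adjusted p = 0.0112). Without S4, 243 genes rose and 137 fell in MDA-MB-468 only. STAC2, an adaptor protein gene, went from 2.91, 3.28 and 2.68 CPM to 2.41 in S4 and 51 and 57.7 in S5 and S6, against 10.1, 7.62 and 8.72 and 8.43, 8.55 and 9.38 in HCC1187, a difference of 4.16 ± 0.24 (adjusted p = 7.62e-13).

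Among the falls, for CYP1A1 the MDA-MB-468 controls held 15.3, 20.1 and 13.3 CPM and the knockdown libraries 14.5 in S4 and 0.421 and 0.46 in S5 and S6, and the HCC1187 libraries held 7.23, 5.08 and 5.6 CPM before and 6.46, 4.96 and 6.28 after. CYP1A1, the monooxygenase induced by the aryl hydrocarbon receptor, was nearly lost in S5 and S6 and at the level of the controls in S4, and its difference was -5.18 ± 0.46 (adjusted p = 4.31e-09) without S4 and did not pass with 12 libraries (adjusted p = 0.302). AHRR, the repressor of that receptor, fell by 2.03 ± 0.45 (adjusted p = 0.000803). Of 8 genes tested on the list of the receptor and its targets, 4 were lower and 1 higher without S4, against 25.6% of all genes, and with 12 libraries 0 passed in edgeR and 4 had an unadjusted p under 0.05. PLAT, tissue plasminogen activator, went from 4.92, 5.74 and 6.26 CPM to 6.11 in S4 and 0.281 and 0.46 in S5 and S6, and its difference was -3.61 ± 0.43 (adjusted p = 7.12e-07) without S4. CALHM5, a channel protein, and ANK1, an ankyrin, fell by 5.77 ± 0.74 (adjusted p = 8.08e-07) and 3.13 ± 0.48 (adjusted p = 9.59e-06). BEST1, a bestrophin channel, fell in all 3 MDA-MB-468 knockdown libraries: it read 7.72, 8.34 and 8.18 CPM in the controls and 0.804 in S4 and 0.702 and 0.306 in S5 and S6, and 1.07, 0.773 and 1.56 against 2.25, 0.827 and 1.15 in HCC1187. Its difference was -4.03 ± 0.57 (adjusted p = 0.0026) with 12 libraries, but its HCC1187 interval from -0.53 to 1.14 was too wide for the restricted class.

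In HCC1187 only, 35 genes fell and 13 rose with 12 libraries, and 23 fell and 17 rose without S4. The level of TMEM263 in MDA-MB-468 was 22.7, 21.3 and 19.8 CPM in the controls and 17.4 in S4 and 21.6 and 23.6 in S5 and S6, and in HCC1187 it was 109, 147 and 129.7 CPM against 28.8, 42.5 and 36.5. TMEM263, a transmembrane protein gene, changed by -1.8 ± 0.15 (adjusted p = 7.33e-06) against -0.04 ± 0.16 (adjusted p = 0.945) in MDA-MB-468. EXTL3 read 93.9, 97.6 and 105 CPM in the MDA-MB-468 controls and 114 in S4 and 95.1 and 87.3 in S5 and S6, and 84.6, 89.5 and 99.4 CPM in the HCC1187 controls against 27, 31.2 and 32.2 after knockdown. EXTL3, which begins heparan sulfate chains, stood at similar levels in both lines before knockdown and fell in HCC1187 only, with a difference of 1.54 ± 0.16 (adjusted p = 0.0003). For SELENOT the MDA-MB-468 controls held 85.8, 77.8 and 57.9 CPM and the knockdown libraries 62.9 in S4 and 64.2 and 73.5 in S5 and S6, and the HCC1187 libraries held 66, 67.6 and 59 CPM before and 20.4, 24.5 and 28.9 after. SELENOT, an ER selenoprotein, fell by 1.33 ± 0.15 (adjusted p = 0.000116) and had an MDA-MB-468 interval from -0.46 to 0.16. MORF4L1, a chromatin protein, and CA5B, a mitochondrial carbonic anhydrase, fell by 1.39 and 1.34 in HCC1187, with 0.15 and 0.18 in MDA-MB-468. Without S4 MORF4L1 passed in MDA-MB-468 as well (0.28 ± 0.10 (adjusted p = 0.0254)) and so counted as opposite.

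Rises restricted to HCC1187 were fewer. CAPG, an actin-capping protein, read 2.93, 2.54 and 3.32 CPM in the HCC1187 controls and 6.04, 6.48 and 8.85 after knockdown, far below the 82.8, 76.5 and 94.9 CPM of the MDA-MB-468 controls, and rose by 1.34 ± 0.21 (adjusted p = 0.00132). SUMF1, the enzyme that activates sulfatases, went from 2.44, 2.32 and 2.7 to 6.04, 6.34 and 4.96 CPM in HCC1187 and from 26, 22.4 and 26.3 to 23.3 in S4 and 24.4 and 22.8 in S5 and S6 in MDA-MB-468, a difference of -1.33 ± 0.23 (adjusted p = 0.00775). ZCWPW1, a reader of histone methylation, and PNPLA4, a lipase, rose by 1.41 ± 0.20 (adjusted p = 0.00057) and 1.18 ± 0.18 (adjusted p = 0.000887), with -0.12 and -0.09 in MDA-MB-468. In all 4 genes the 3 HCC1187 knockdown libraries lay above the 3 controls, and the MDA-MB-468 groups overlapped. This order follows largely from the rule of the restricted class, by which they were chosen.

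**Figure D5:**
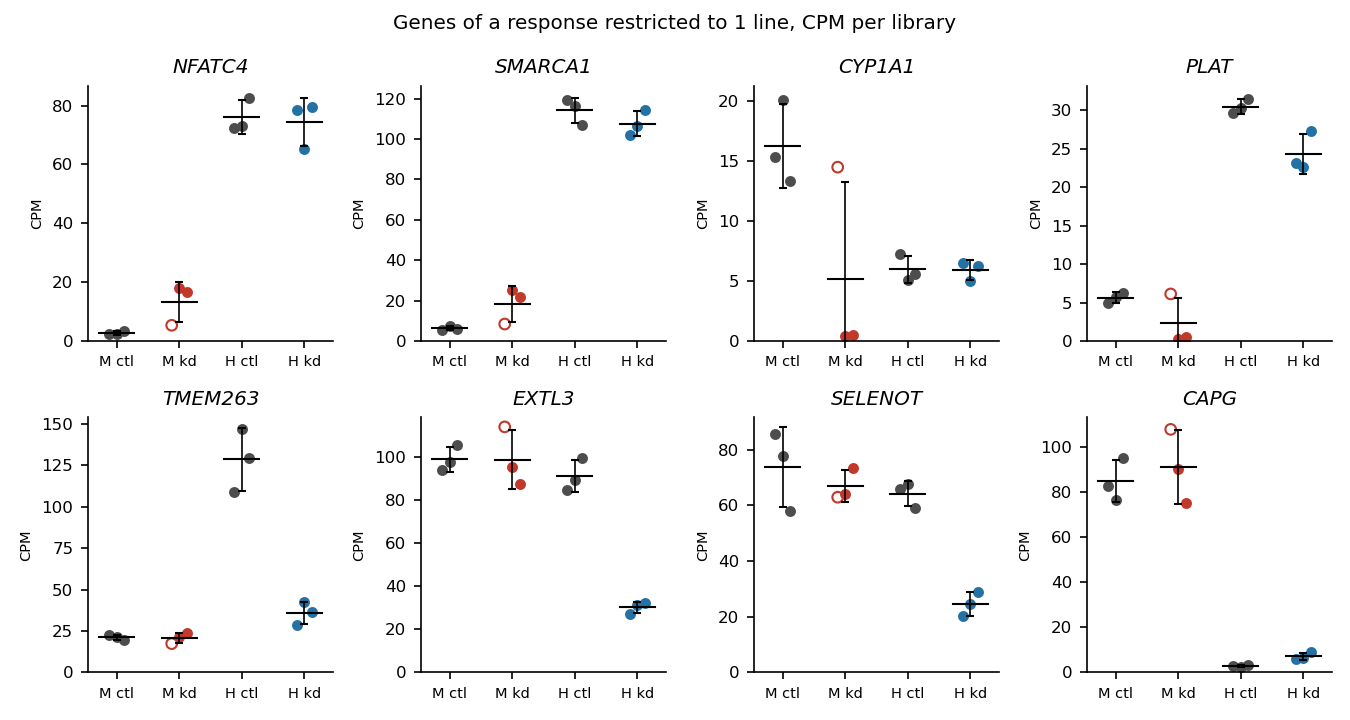
CPM per library (y axis, linear from 0) of 8 genes whose response was restricted to 1 line, in the 4 groups (x axis: M, MDA-MB-468; H, HCC1187; ctl, control; kd, knockdown). Points are libraries, the open circle is S4, and bars give the mean and SD of 3 libraries; the upper row moves in MDA-MB-468 and the lower row in HCC1187.

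CCN2, THBS1 and MYC fell in both lines without S4, by unequal amounts. CCN2, a matricellular target of YAP and TAZ, read 39.6, 26.8 and 19.2 CPM in the MDA-MB-468 controls and 16.6 in S4 and 2.25 and 2.3 in S5 and S6, and 14, 12.7 and 13.9 against 2.81, 2.34 and 3.1 in HCC1187. Its difference was -1.42 ± 0.43 (adjusted p = 0.016) without S4, and with 12 libraries it had the other sign, 0.17 ± 0.73 (adjusted p = 0.967), so no order of the lines is read for it. THBS1, thrombospondin 1, fell by 3.99 ± 0.20 (adjusted p = 1.04e-14) and 1.14 ± 0.40 (adjusted p = 0.0426) without S4, at levels of 309, 256 and 166 CPM in the MDA-MB-468 controls and only 2.93, 3.42 and 2.91 in HCC1187. MYC, the growth-promoting transcription factor, fell by 1.76 ± 0.12 (adjusted p = 4.24e-12) and 0.46 ± 0.10 (adjusted p = 0.00246). INHBA and KRT17 fell in MDA-MB-468 and did not pass in HCC1187. INHBA, an activin subunit, was under 1 CPM in S5 and S6 (44.4, 50.7 and 38.5 CPM in the controls, 29.3 in S4 and 0.983 and 0.919 in S5 and S6) and did not pass in HCC1187 (-0.63 ± 0.33 (adjusted p = 0.19)), where its controls held 1.95, 2.87 and 2.7 CPM. KRT17, a basal keratin, fell from 664, 620.5 and 570.4 CPM to 644 in S4 and 125 and 100.2 in S5 and S6 in MDA-MB-468 and did not pass in HCC1187 (-0.26 ± 0.25 (adjusted p = 0.519)), where its groups overlapped at 4.88, 9.83 and 11.5 and 3.79, 11.2 and 6.46 CPM. Its difference was -2.2 ± 0.31 (adjusted p = 6.04e-06) without S4. As lists, YAP and TAZ targets had 5 of 21 genes lower and 2 higher in MDA-MB-468 without S4, and activin, TGF-beta and BMP genes 8 of 23 and 3. Over all genes 25.6% differed in either direction, to be read beside both counts. With 12 libraries 0 and 1 gene passed in edgeR in the 2 lists, against 3.75% of all genes, and 4 of the YAP and TAZ targets had an unadjusted p under 0.05.

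S4 took no part in the classes formed without it, so its own values can be set beside them, against the same controls. Over the 317 opposite genes up in MDA-MB-468 with at least 1 CPM in each line, the median log2 deviation from the MDA-MB-468 controls was 0.48 in S5, 0.55 in S6 and -0.04 in S4, and S4 lay above the control mean in 136 of them (42.9%). Over the 191 genes of the reverse direction the medians were -0.44, -0.52 and 0.04, and S4 lay below the control mean in 77 (40.3%). For all 12525 genes the shares above and below were 52.6% and 47.4%. The 220 genes that rose only in MDA-MB-468 had medians of 1.29 and 1.23 in S5 and S6 and 0.09 in S4, and the 130 that fell only there had -1.13, -1.32 and -0.01. In HCC1187 the 22 genes that fell only in that line had medians of -1.55, -1.08 and -1.15 in S10, S11 and S12. Why S4 stood with the controls was not tested.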

How the data were processed

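The 12 libraries are RNA-seq of MDA-MB-468 and HCC1187 cells. The authors deposited whole-number read counts per gene, 1 table per line, and per the submitters' processing notes the tools were HISAT2 2.1.0, featureCounts 2.0.0, Trimmomatic 0.39, SAMtools, FastQC 0.11.9 and MultiQC 1.11, with GRCh38. No source used here gives the annotation release or strand setting. The knockdown columns are named BLANCO: the sample descriptions give that name to the knockdown samples, and the deposited phenotype tables give sh-SOX9-AS1 for those columns, except S4, which they do not list. The sign of every fold change rests on this. Each library has 3 count columns, named as its lanes. Column names give the group and not the sample, so 1 column per library was used, that of lane 1; the lanes were not summed and the other 24 of 36 columns were not used. Total counts ran from 6026376 to 10160040, which limits the precision for genes of few counts.

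Computed here: genes were filtered with filterByExpr (minimum count 10, minimum total 15), scaled by TMM and tested in edgeR 4.0.16 (R 4.3.3) with a quasi-likelihood model of the 4 group means and Benjamini-Hochberg adjustment at 0.05. DESeq2 1.42.0 and limma 3.58.1 (voom, with and without quality weights) were alternatives, besides other scalings, filters, thresholds, a separate fit of each line and leaving out each library. Counting only genes of at least 1 CPM in each line was added after seeing the data. Standard errors are the log2 fold change over the square root of F. Of 60675 gene IDs, 60356 matched the reference table of names, from which 4 names read as dates were restored. The fits were also run on simulated counts with a common spread for all genes and with S4 changed like S5 and S6. That run does not cover an S4 that lies near the controls.

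Genes were named by rule: the targeted pair, then, among genes passing the difference, those with the largest difference, with the largest smaller fold of the opposite class or with the largest fold of the restricted class, and members of the described lists by smallest p. A few genes that meet the rule are not reported here. The members and lists were chosen with earlier results of these data known.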

Additional observations from a re-analysis of the deposited data

Results flagged for a closer look

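The responses of the 2 lines differed, by the test of the difference itself (edgeR, adjusted p under 0.05), for 64 of the genes described with 12 libraries. The genes described were named mainly for passing this test or for a small p, so that count follows from the selection. Log2 values of a more negative response in MDA-MB-468 were -4.03 for BEST1, -2.05 for PTK2B, -1.73 for THNSL1, -1.72 for NOP14-AS1, -1.56 for FAM86C1, -1.53 for ZCWPW1 and -1.38 for COL4A1. Next came -1.33 for SUMF1, -1.27 for PNPLA4, -1.25 for CAPG, -1.24 for ZNF829, -0.81 for CPT2, -0.78 for CENPA and -0.71 for KPNA2. The following values were -0.66 for ECHS1, -0.61 for TNRC6A and -0.57 for MKI67. Log2 values of a more positive response in MDA-MB-468 were 0.53 for HADHA, 0.85 for XBP1, 0.90 for ERBB3, 0.97 for PGK1, 0.99 for TRIB3, 1.01 for CDH3 and 1.11 for LDHA. Next came 1.12 for P4HA1, 1.13 for VIM, 1.18 for SELENOT, 1.21 for ATF3, 1.27 for VEGFA, 1.35 for SLC7A11 and 1.36 for INSIG2. The following values were 1.36 for SCD5, 1.45 for BCL6, 1.45 for ETV4, 1.47 for FAM117A, 1.51 for KDELR3, 1.51 for CA5B and 1.54 for EXTL3. Values of a more positive response in MDA-MB-468 also included 1.54 for MORF4L1, 1.58 for BTG2, 1.58 for ETV5, 1.62 for SMARCA1, 1.67 for PFKFB4, 1.68 for ACSS2 and 1.76 for TMEM263. Log2 values of a more positive response in MDA-MB-468 were 1.78 for CYFIP1, 1.9 for H1-2, 1.9 for TGFBR3, 2.01 for FDFT1, 2.02 for FBLN5, 2.04 for PPP1R3C and 2.15 for CRIP2. Next came 2.3 for NFATC4, 2.34 for FADS2, 2.44 for MVD, 2.44 for REC8, 2.67 for FOS, 3.15 for MSMO1 and 3.24 for ETV1. The following values were 3.32 for DDIT4, 3.6 for PNPLA3, 3.61 for STAC2, 3.64 for SCD and 3.92 for INSIG1.

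Without S4 a further 34 of the genes described passed that test. Log2 values of the difference without S4 were -5.69 for CALHM5, -5.18 for CYP1A1, -4.9 for INHBA, -3.61 for PLAT, -3.26 for ANK1, -2.99 for DNAH17 and -2.85 for THBS1. Next came -2.71 for FOSL1, -2.65 for PRRT3, -2.2 for KRT17, -2.2 for AHRR, -1.42 for CCN2, -1.31 for HSPA1A and -1.31 for MYC. The following values were -1.25 for CPT1A, -1.12 for HSPA8, -0.99 for PLK1, -0.95 for AGO2, -0.83 for CDC25B, -0.82 for CDC20 and -0.73 for DNAJB1. Above zero, log2 values of the difference without S4 were 0.71 for STAT2, 0.81 for MTHFD2, 0.92 for AGO4, 1.12 for CD24, 1.254 for SREBF2, 1.26 for IFITM1 and 1.32 for SREBF1. In the same order these were followed by 1.39 for BNIP3L, 1.5 for ACLY, 2.17 for FASN, 2.34 for IRF9, 2.84 for STARD4 and 2.84 for DHCR7.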

How the results depend on the processing

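With 12 libraries, 613 genes differed between the lines, 20 were opposite and 66 restricted. These counts were 1170 and 60 (different, opposite) with DESeq2, 4789, 545 and 451 with voom quality weights, 1415, 114 and 186 with no filter, 86, 0 and 21 at an adjusted p under 0.01, and 68, 0 and 14 with each line fitted by itself. With a stricter bound on the other line 7 genes were restricted. At an unadjusted p under 0.05, 3367 genes differed. Leaving out 1 library gave 129 to 4300 different, 0 to 521 opposite and 24 to 420 restricted genes, the highest each time without S4. In the quality weights S4 had 0.141 and the other libraries 0.588 to 2.76. Without S4 the counts of 4300, 521 and 420 became 2587 and 215 (different, opposite) at an adjusted p under 0.01, and 105 restricted with that stricter bound. Leaving out 1 more library gave 2855 to 4234, 291 to 548 and 360 to 457. The cause was not tested.

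CCN2 turned from 0.17 with 12 libraries to -1.42 without S4 (leaving out 1 library, -1.42 to 0.61). Of the libraries, only S4 was left out for the list medians: without it the median difference went from 0.86 to 1.12 for SREBP control, from 0.95 to 1.26 for fatty acid synthesis, from 0.37 to 0.47 for ATF4, from -0.24 to -0.47 for chaperones, from 0.06 to -0.08 for actin and from -0.02 to -0.28 for YAP targets. With library totals it was -0.21 for fatty acid oxidation and -0.39 for mitosis. Of 100 genes described, 63 passed the difference with 12 libraries, TNRC6A not counted because its adjusted p rounds to 0.05, 30 of them under every library left out and 44 under every other alternative. Without S4, 98 passed, and 97 did so under each. These genes were named mainly for passing this test or for a small p in the same libraries. Such counts therefore follow from the selection and do not measure the stability of all genes. Over all genes 3.75% differed with 12 libraries and 25.6% without S4. No paired analysis was possible because the count columns carry no replicate numbers.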
